A study of Camponotus floridanus with 64 samples.

Results

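A set of 41 gene identifiers had signal in the brains of day-old minor workers of the carpenter ant Camponotus floridanus and next to none in the brains of solvent-fed minor scouts. They were chosen by value from 16925 identifiers made of Cflo_ and digits. Each had a deposited log2 value of 2 or more in all 5 day 1 minor brains with a mean under 6 there, and a value under 0.5 in all 5 DMSO scouts. The choice therefore fixed the scout to day 1 contrast, which is described here and not tested. Of the 1085 identifiers that met the limits for day 1 minors, 3.78% also met the limit for DMSO scouts, and the other 1044 serve below as a comparison. No gene name is paired with any of the 41, and 0 of the 41 matched the reference table of 14020 genes, so neither function nor sequence is given for them.

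RNA was sequenced from central brains to ask how inhibitors of histone acetylation and deacetylation change the behaviour and gene expression of a worker caste. Scouts were adult minor workers, of the kind that leaves the nest to look for food, and had been fed sugar water. Of these, 6 received 50 µM trichostatin A (TSA) with C646, at 50 µM in 4 brains and 100 µM in TSA+C646 scouts 14 and 15. They were 57 to 66 days old and came from colonies SB1, SB4 and SB6. A further 10 received 50 µM TSA, were 68 to 73 days old and came from SB1, SB2 and SB4. The 5 DMSO scouts were 78 days old and came from SB2 (3 brains), SB6 and SB7. Scouts are given in the labels as isolated at day 25 to 30 and fed for 45 days, with DMSO at 0.5%. For the TSA+C646 scouts and the TSA scouts of 68 days, the labelled age is less than the isolation day and the feeding time added up, so these labels do not add up for them. Each scout library used 15% of 1 brain and 1 round of LinDA, a linear amplification of cDNA. The 5 day 1 majors and 5 day 1 minors were untreated callows, which are newly emerged adults, all of SB2, and are described without LinDA. A single further day 1 minor of SB2 gave 6 libraries, with LinDA from 1% and, 4 times, from 4% of the brain, and without LinDA from 75%. Age, feeding, amplification and, in part, colony thus all differ between scouts and day 1 minors and cannot be told apart.

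In ants with worker castes, foraging falls mostly to minors, while the larger majors leave the nest less often. Workers also change tasks with age, staying in the nest when newly emerged and going out to forage later. Histone acetylation is a chromatin mark tied to active genes: TSA blocks the enzymes that remove it, the histone deacetylases, and C646 blocks p300 and CBP, which add it.

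Some libraries stood apart. An identifier is called detected where it lay above the tied values at the bottom of its library, and its level is the deposited log2 value with a constant of that library removed and undetected identifiers at 0. Day 1 majors 1, 2 and 3 had 5459, 6298 and 6528 detected identifiers, against 10216 and 11768 in majors 4 and 5 and 10462 to 11259 in the minors. In scouts the number was 2791 in TSA+C646 scout 15 and 12032 in TSA+C646 scout 16, 11004 and 12328 in TSA scouts 9 and 10, and 7825 to 8931 in DMSO scouts. The constants of TSA+C646 scout 16 and of TSA scouts 9 and 10 were 0.907, 0.482 and 0.840, so an undetected identifier could carry a deposited value above 0.5 in them. Undetected identifiers also reached 1.3 in TSA+C646 scout 15, whose constant was -0.33, and 0.54 in major 1. No brain marker carries a name in these tables. Of the named receptor identifiers, the olfactory co-receptor Cflo_ORco, a mark of antennal sensory neurons, was detected in 1 of 5 majors and 0 of 5 minors on day 1, and in 3 of 6 TSA+C646, 6 of 10 TSA and 2 of 5 DMSO scouts. Its highest level, 2.21, was in a major. Cflo_IR25a, the co-receptor of ionotropic receptors, was detected in 5 of 5 majors (0.76 to 1.58) and 5 of 5 minors (1.20 to 1.65), in 6 of 6 TSA+C646 scouts (0.10 to 2.08, median 0.57), 9 of 10 TSA scouts (0 to 0.50, median 0.29) and 2 of 5 DMSO scouts (0 to 0.63, median 0). Among scouts the median of Cflo_IR25a was lowest with DMSO, the group chosen here to lack the 41. For Cflo_ORco the medians in TSA+C646, TSA and DMSO scouts were 0.02, 0.05 and 0, and the highest levels were 0.85, 0.94 and 0.92. In day 1 minors Cflo_IR25a was detected in every brain and Cflo_ORco in none. The part of sensory tissue in the results was not tested.

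**Figure D1:**
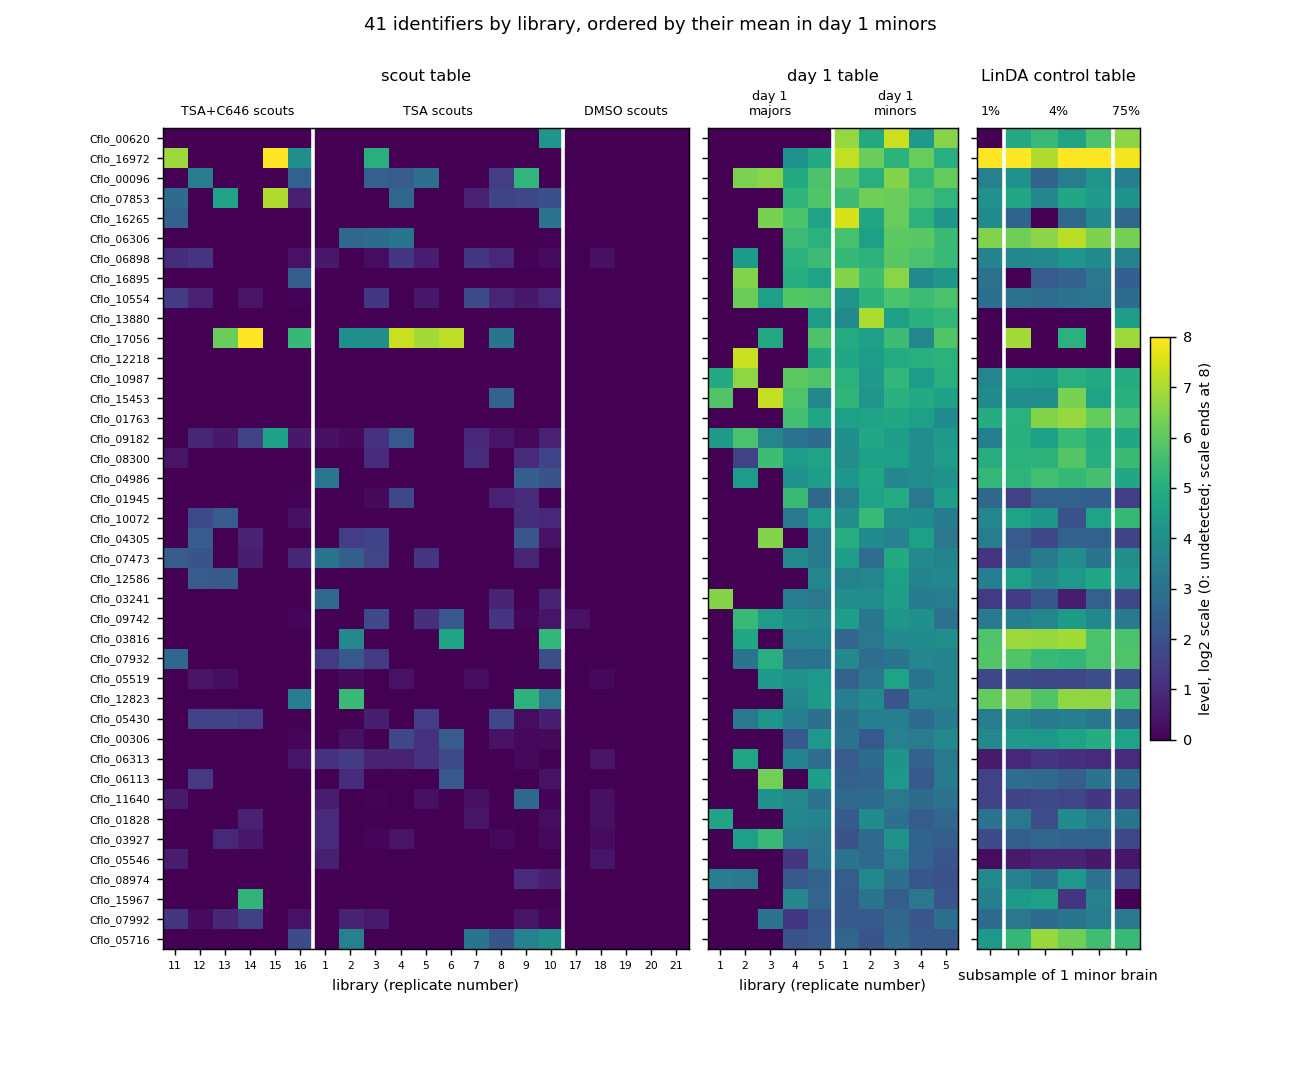
Levels of the 41 identifiers (rows, ordered by their mean in day 1 minors) in 37 libraries (columns), on a log2 scale with undetected identifiers at 0. The 3 tables were normalized separately. The 5 minors are filled from top to bottom and the 5 DMSO scouts are empty but for 8 faint cells, both by the choice; TSA+C646 scouts, TSA scouts and majors are partly filled.

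In DMSO scouts, 33 of the 41 were undetected in all 5 brains. The other 8 were faintly detected in 1 brain each, 7 in DMSO scout 18 and 1 in DMSO scout 17, at levels of 0.17 to 0.44. The day 1 minor means of the 41 ran from 2.39 to 5.96 with a median of 4.02, against a median of 3.47 for the 1044 others. They also varied more between minor brains. The median SD over the 5 minors was 0.61, against 0.34 for the 1044 others and 0.32 for the 3546 identifiers with a day 1 mean of at least 1. These values belong to the choice and show where it fell within the data.

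The limits cut through runs of similar values. Just inside the lower limit for minors were Cflo_08974, Cflo_03927 and Cflo_05716, with lowest minor values of 2.004, 2.04 and 2.07, and just outside were Cflo_05771, Cflo_16563 and Cflo_03176, at 1.99, 1.97 and 1.93. By the highest DMSO value, Cflo_05546, Cflo_06313 and Cflo_09742 were inside at 0.46, 0.43 and 0.42, and Cflo_13501, Cflo_07418 and Cflo_03928 were outside at 0.51, 0.51 and 0.52. Under the limit on the minor mean were Cflo_00620, Cflo_16972 and Cflo_00096 at 5.96, 5.95 and 5.78, with Cflo_03935, Cflo_05994 and Cflo_16794 beyond it at 6.07, 6.20 and 6.45. Among the 1085 identifiers on the minor side, 33, 39, 47, 76, 109 and 781 were detected in 0, 1, 2, 3, 4 and 5 DMSO scouts, so absence graded into presence.

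To read the choice in brains it had not used, identifiers were chosen again without 1 library and then looked up in it. Sets of 47 to 54 identifiers were obtained without 1 DMSO scout. In the DMSO scout left out, 18.4%, 34.6%, 12.8%, 24.1% and 18% of the set was detected when scouts 17, 18, 19, 20 and 21 were left out in turn. The same sets were detected at 28.9 to 30.6% in TSA+C646 scouts and at 38.1 to 39.6% in TSA scouts. The left-out DMSO scout was below the TSA mean in all 5 sets. It was below the TSA+C646 mean in 4 of the 5, with DMSO scout 18 above it. All 5 sets contain the 41, so they are not 5 independent readings. TSA scouts 9 and 10, with 11004 and 12328 detected identifiers, enter the TSA mean, while DMSO scouts had 7825 to 8931. The order is a description with no test. At a deposited value of 2 or more, 2.13 to 11.1% of a set was present in the left-out DMSO scout, against 10 to 12.6% in TSA scouts. Without 1 day 1 minor the sets held 43 to 52 identifiers, and 78.9 to 93.0% of them reached 2 in the minor left out.

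**Figure D2:**
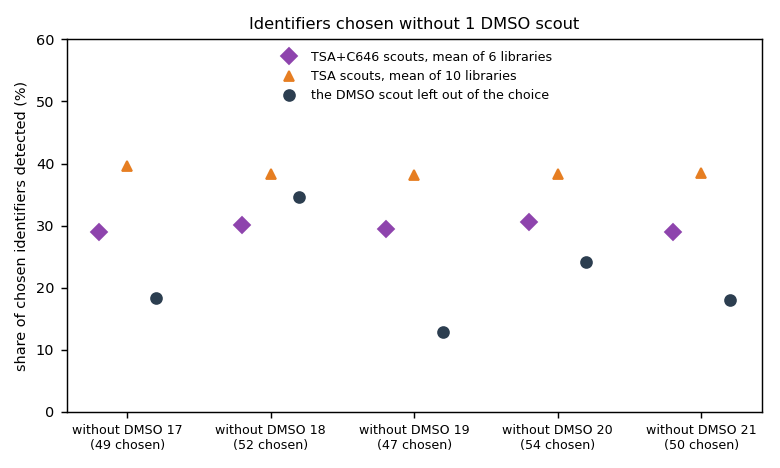
Share of identifiers detected (%, y axis) when the choice was made without 1 DMSO scout (x axis), with the mean over TSA+C646 scouts (diamonds), the mean over TSA scouts (triangles) and the DMSO scout left out (circles). The left-out DMSO scout lies at 12.8 to 34.6% and the TSA mean at 38.1 to 39.6%.

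In scouts given inhibitors the 41 were patchy. They were detected in 66 of 246 pairs of identifier and library (26.8%) in TSA+C646 scouts, 144 of 410 pairs (35.1%) in TSA scouts and, by the choice, in few pairs in DMSO scouts. The 1044 others were detected in 83.8% of pairs in TSA+C646 scouts and 92.0% in TSA scouts, and all 16925 numbered identifiers in 47.2% and 54.6%. By library, 11, 12, 9, 10, 3 and 21 of the 41 were detected in TSA+C646 scouts 11 to 16 (11 ± 5.83, SD, n = 6). TSA scouts 1 to 10 had 11, 14, 18, 11, 10, 6, 9, 14, 21 and 30 (14.4 ± 7.01, SD, n = 10). DMSO scouts 17 to 21 had 1, 7, 0, 0 and 0. The lowest TSA count, in TSA scout 6, was below the highest DMSO count, as was that of TSA+C646 scout 15, and all other inhibitor brains were above every DMSO brain. Since the DMSO side was chosen to be low, this order is a description with no test.

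Among scouts given inhibitors, the libraries with the most of the 41 were also those with the most identifiers detected in all, and the poorest had the fewest of both. Depth is unknown, and its part in these counts was not tested. Within colony SB2, TSA scouts 1, 2, 3 and 10 had 11, 14, 18 and 30, and DMSO scouts 17, 18 and 19 had 1, 7 and 0. In SB6 the single TSA+C646 scout had 12 and the single DMSO scout had 0. The choice fixed the DMSO counts low in both colonies. Without TSA+C646 scouts 15 and 16 the mean was 10.5 ± 1.29 (SD, n = 4), and without TSA scouts 9 and 10 it was 11.6 ± 3.66 (SD, n = 8). In bulk tissue, fewer cells of a type and less RNA per cell cannot be told apart.

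**Figure D3:**
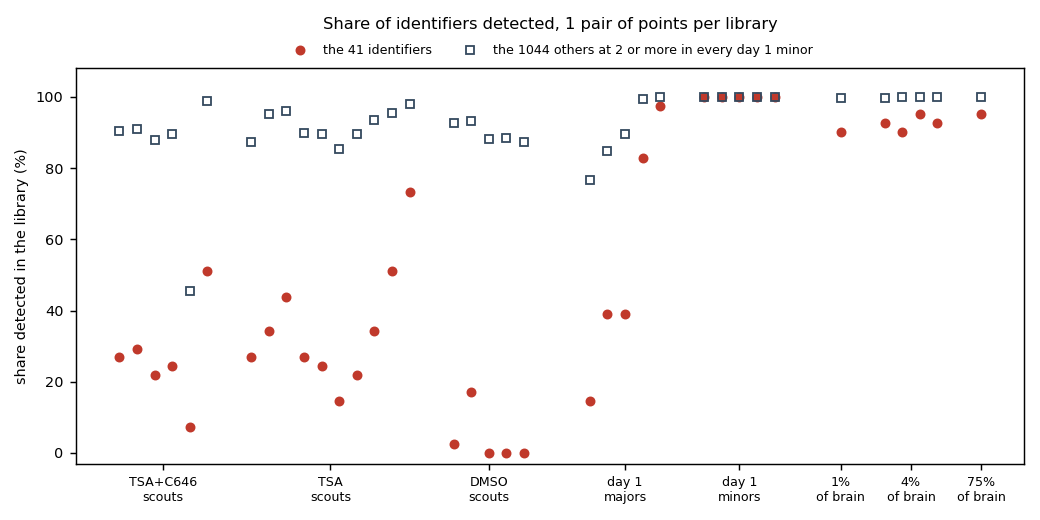
Share of identifiers detected (%, y axis) in each library, by group (x axis), for the 41 (filled circles) and for the 1044 others at 2 or more in every day 1 minor (open squares). The 41 reach 7.32 to 51.2% in TSA+C646 scouts, 14.6 to 73.2% in TSA scouts, 0 to 17.1% in DMSO scouts, 14.6 to 97.6% in majors and 90.2 to 95.1% in the subsamples.

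Few of the 41 were detected in most inhibitor brains. Of the 16 TSA and TSA+C646 scouts, 9 to 16 had a detected signal for 8 of the 41, 5 to 8 for 14, 1 to 4 for 15, and none for 4. Among the 1044 others these numbers were 978, 52, 13 and 1. In 28 of the 41 (68.3%) the signal was found in at least 1 TSA+C646 and at least 1 TSA scout, against 99.3% of the 1044 others, in 2 only among TSA+C646 scouts and in 7 only among TSA scouts. Without TSA+C646 scouts 15 and 16 and TSA scouts 9 and 10, 34 of the 41 (82.9%) were still detected in at least 1 inhibitor brain, against 99.8% of the others. Where detected, the level was low, with a median of 1.26 in TSA+C646 scouts and 1.05 in TSA scouts. A level of 2 or more was reached in some inhibitor brain by 25 of the 41 (61%), against 77.9% of the 1044 others, and a level of 4 or more by 10 (24.4%), against 22.4%.

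Cflo_09182 was the most widely detected, in 13 of the 16 brains. Its lowest, median and highest levels were 0, 0.71 and 4.59 in TSA+C646 scouts and 0, 0.40 and 2.21 in TSA scouts, and it was at 0 in all 5 DMSO scouts. Cflo_06898 came next with 11 brains, at 0, 0.19 and 1.21 in TSA+C646 scouts and 0, 0.40 and 1.29 in TSA scouts. It was 1 of the 8 with a faint DMSO signal, 0.37 in DMSO scout 18. Cflo_07473 and Cflo_10554 were each detected in 10 brains, with a highest level of 3.10 and 1.84, both in TSA scouts. All 4 stayed at low levels in most brains, and the groups given inhibitors overlapped each other.

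Cflo_17056 behaved differently from these, being either undetected or high. It was at 0, 2.68 and 7.99 (lowest, median and highest) in TSA+C646 scouts, at 0, 3.56 and 7.36 in TSA scouts and at 0 in all 5 DMSO scouts. The 9 brains with signal lay between 3.12 and 7.99, and the other 7 at 0. Cflo_16972 was of the same kind, with 6.83, 9.22 and 3.99 in TSA+C646 scouts 11, 15 and 16, 5.03 in TSA scout 3, and 0 in the other 12 inhibitor brains. Cflo_07853 reached 7.06 in TSA+C646 scout 15 and 4.61 in TSA+C646 scout 13, with medians of 1.75 in TSA+C646 and 0.37 in TSA scouts. TSA+C646 scout 15 had the fewest identifiers of all scouts and held the highest level of Cflo_16972, Cflo_07853 and Cflo_09182. In the 4% subsamples of 1 day 1 minor brain, described below, Cflo_17056 was also either undetected or high, at 6.88, 0, 5.11 and 0. Cflo_16972 was detected in all 4 of them.

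Several of the identifiers with the highest day 1 minor means were seen in few scouts. Cflo_00620, the highest at 5.96, was found in 1 scout, TSA scout 10, at 4.23. Cflo_16895 was found in TSA+C646 scout 16 alone, at 2.35. Cflo_16265 was found in TSA+C646 scout 11 at 2.56 and in TSA scout 10 at 3.04. Cflo_06306 was found in TSA scouts 2, 3 and 4, at 2.72, 2.79 and 3.10, and in no TSA+C646 scout. Cflo_00096 was found in 2 of 6 TSA+C646 and 5 of 10 TSA scouts, at up to 3.36 and 5.27.

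For 4 identifiers, Cflo_12218, Cflo_10987, Cflo_01763 and Cflo_13880, the level was 0 in all 21 scouts. Their means in day 1 minors were 4.85, 4.83, 4.47 and 5.14, above the median of the 41. Of the 1044 others, 1 was undetected in all inhibitor brains.

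Neither group in the comparison of TSA+C646 with TSA scouts was used in the choice, although the DMSO libraries shared the fit and its filter. It was fitted with limma over 4745 numbered identifiers whose deposited values averaged 1 or more, as 5 of the 41 did: Cflo_17056, Cflo_16972, Cflo_00096, Cflo_07853 and Cflo_05716. None of the 5 was called at an adjusted p under 0.05, nor was any identifier in the table (percent called 0). The 5 passed the filter through their values in inhibitor brains, so no count over them is read. Cflo_16972 differed by 2.78 on the log2 scale (SE 1.12, limma adjusted p = 0.992), being detected in 3 of 6 TSA+C646 and 1 of 10 TSA scouts. Cflo_07853 differed by 1.59 (SE 0.78) and Cflo_05716 by -1.15 (SE 0.70), each at a limma adjusted p of 0.992. Without TSA+C646 scout 15 the difference was 1.69 for Cflo_16972 and 0.77 for Cflo_07853. For Cflo_05716 the sign turned within colony SB4, at 0.34. The SE of 0.70 to 1.38 over these 5 leaves differences of 1 on the log2 scale undetectable here. With the DMSO scouts left out of the fit and no filter, all 41 entered. Of these, 16 had a higher and 25 a lower mean in TSA+C646, and 0 were called (percent called 0). The median difference was -0.01, against -0.01 over 16925 identifiers. Cflo_12218, Cflo_01763 and Cflo_10987, undetected in all scouts, also differed by -0.01 through the library constants and count among the 25. The medians and signs are thus not read as differences in expression. At an unadjusted p under 0.05, 3 of the 41 were higher and 1 lower, beside 0.821% and 0.709% of all 16925 identifiers. The 16925 include identifiers without signal in any scout, so these shares are not like for like. No excess among the 41 is read from that fit. The SE there was 1.16 for Cflo_16972, 0.81 for Cflo_07853 and 0.73 for Cflo_05716, each at a limma adjusted p of 1.00.

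A test of whether the effect of C646 differed between colonies SB4 and SB1 called 0 of the same 5 and 0 of the 4745 identifiers (limma, lowest adjusted p among the 5 = 0.910). In that comparison colony SB4 also received the higher C646 dose, so dose and colony cannot be told apart. The scouts also differ in age between arms.

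Against DMSO both inhibitor groups share the same 5 control brains, and the direction was set by the choice. No identifier was called in either comparison (limma, percent called 0 in each). The differences are given as a description with no test. In TSA+C646 scouts Cflo_16972 was 3.43 above DMSO on the log2 scale, Cflo_17056 3.41 and Cflo_07853 2.62. In TSA scouts Cflo_17056 was 3.40 above DMSO, Cflo_05716 1.70 and Cflo_00096 1.59. With colony as a block the difference of Cflo_17056 was smaller, 1.38 in TSA+C646 and 1.86 in TSA scouts.

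Day 1 majors share the age, colony and lack of amplification of the day 1 minors and were not used in the choice, although the minors were. The 41 were detected in 6, 16, 16, 34 and 40 cases in majors 1 to 5, and in 41 in each minor. Of the 1044 others, 76.5, 84.7, 89.6, 99.4 and 100% were detected in majors 1 to 5. Majors 4 and 5 had 10216 and 11768 detected identifiers, the first below and the second above the 10462 to 11259 of the minors. Both held 34 of the 41 (82.9%), which are all those found in major 4, against 99.4% of the 1044 others. In majors 1, 2 and 3, 15 of the 41 (36.6%) were detected in no library, against 4.6% of the others. By number of majors, 1 of the 41 was detected in none, 2 in 1, 16 in 2, 11 in 3, 10 in 4 and 1, Cflo_09182, in all 5. Among the 1044 others these numbers were 0, 2, 49, 88, 189 and 716.

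Cflo_00620 had the largest difference between majors and minors among the 41. It was at 0 in all 5 majors and at 6.74, 4.86, 7.35, 4.32 and 6.56 in minors 1 to 5. The groups do not overlap, and majors 4 and 5 were at 0 as well. It was 1 of 2 identifiers called among 3546 tested (percent called 0.0564) and the only one of the 41 called, with a difference of -5.94 on the log2 scale (SE 0.55, limma adjusted p = 0.00205). The minor values that the choice used form 1 side of this fit, so its p values for the 41 are not independent of the choice. Every major lay below every minor for 2 of the 41, Cflo_00620 and Cflo_16972, beside 4.31% of all tested. Without majors 1 to 3 the difference was -5.95 and no longer passed (limma adjusted p = 0.0861); without major 5, 5 of the 41 and 42 identifiers in all were called.

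Cflo_13880 and Cflo_12586 came next. Cflo_13880 was at 0, 0, 0, 0 and 4.40 in majors and at 3.80, 7.0, 4.55, 5.06 and 5.31 in minors, a difference of -4.17 (SE 0.91, limma adjusted p = 0.154). Cflo_12586 was at 0, 0, 0, 0 and 3.67 in majors and at 3.52, 3.68, 4.54, 3.62 and 3.74 in minors, a difference of -3.05 (SE 0.69, limma adjusted p = 0.157). In both, major 5 alone lay within the range of the minors, and both were called without it, at differences of -5.03 and -3.78. Cflo_16972, Cflo_05546 and Cflo_05716 were at 0 in majors 1 to 3. In majors 4 and 5 they were at 4.12 and 4.88, 1.27 and 3.13, and 2.06 and 2.27, against minor means of 5.95, 2.77 and 2.39. Leaving out major 5 also brought the first 2 of these past the threshold.

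Other members reached minor-like levels in the majors where they were detected. Cflo_10987 was at 4.88, 6.67, 0, 5.97 and 5.79 in majors and at 5.11, 4.30, 5.31, 4.40 and 5.06 in minors. Cflo_15453 was at 5.82, 0, 7.31, 5.80 and 3.74 in majors and at 5.23, 4.16, 5.08, 4.89 and 4.58 in minors. Each had 1 undetected major, and the other majors lay within or above the range of the minors, save major 5 of Cflo_15453, which lay below it. Cflo_10554 and Cflo_00096 had the same shape, with major 1 at 0 and the other majors at 4.52 to 6.20 and 4.90 to 6.57, against 4.18 to 5.75 and 5.05 to 6.5 in minors. Cflo_09182 was at 4.35, 5.70, 3.65, 3.0 and 2.79 in majors and at 4.02, 4.77, 4.46, 3.92 and 4.32 in minors, and its groups overlapped.

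**Figure D4:**
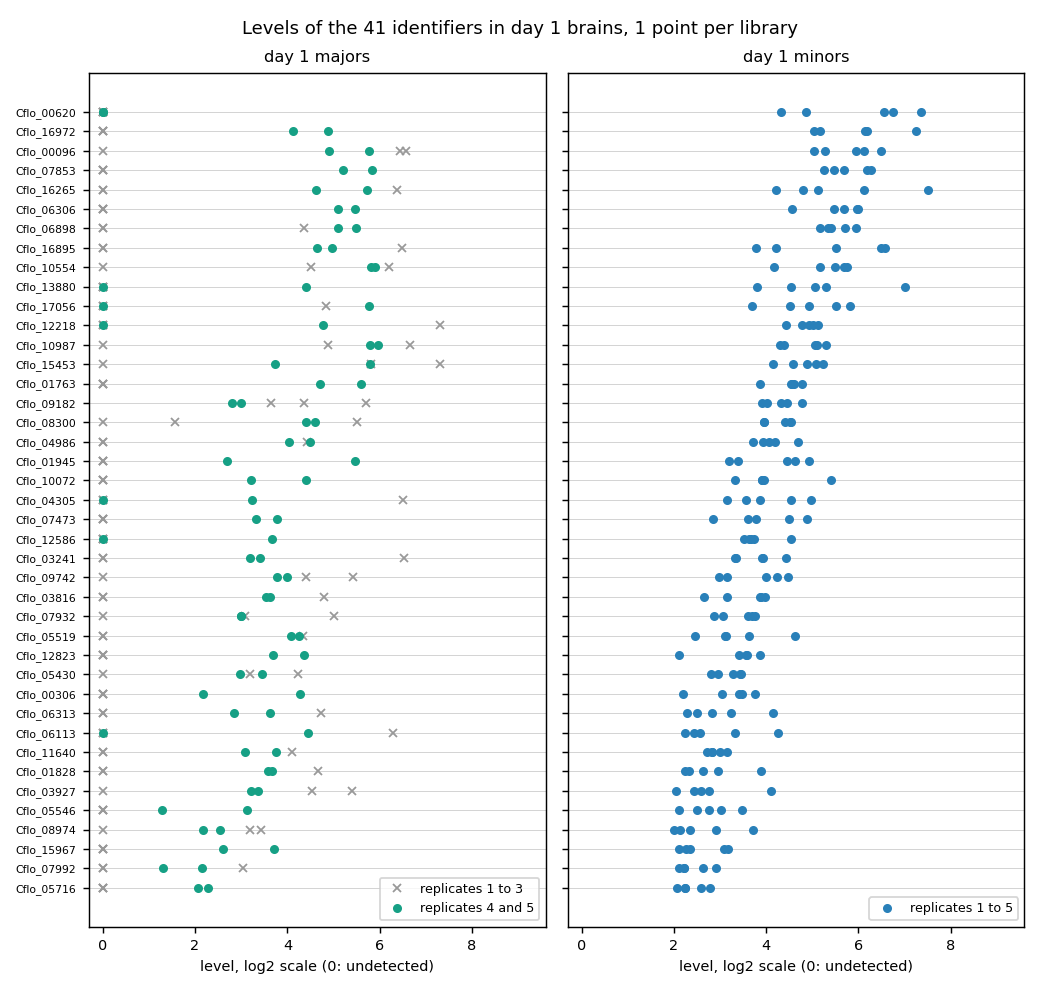
Level of each of the 41 identifiers (rows, ordered by the mean in day 1 minors; x axis, log2 scale with undetected at 0) in 5 day 1 majors (left) and 5 day 1 minors (right), 1 point per library. Majors 1 to 3 (crosses) are at 0 for 15 identifiers; majors 4 and 5 (circles) are both detected for 34, and Cflo_00620 is at 0 in every major.

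Over all 41, 40 had a lower mean in majors, with a median difference of -1.33, against -0.51 for the 1044 others and -0.22 over the 3546 tested. The upper quartile of this difference was -0.71 for the 41, -0.10 for the 1044 others and 0.15 for the 3546. Most of the others were thus lower in majors as well. The choice set the minors high for the 41 and for the 1044 others, which favours lower majors in both, but not in the 3546 as a whole. Majors 1 to 3, with their low number of detected identifiers, enter these means. For majors 4 and 5 alone the median difference from the minors was -0.25, against -0.12 for the 1044 others and -0.06 for the 3546. Majors 4 and 5 were both below every minor for 3 of the 41 (Cflo_00620, Cflo_16972 and Cflo_09182), beside 10.2% of all tested. They were both above every minor for 2 (Cflo_10987 and Cflo_10554), beside 7.64%. Both were within the range of the minors for 14, and their mean was above that of the minors for 16. The same shares were not taken over the others. The upper quartile of the difference of that mean from the minors was 0.23 for the 41, 0.19 for the 1044 others and 0.22 for the 3546.

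The pattern of Cflo_00620 over the 10 day 1 brains was most like that of Cflo_04932 (Pearson r = 0.950), Cflo_00805 (r = 0.947) and Cflo_05189 (r = 0.935), none of them among the 41. The first 2 were faint, at 0 to 0.11 and 0 to 0.07 in majors and 0.26 to 0.48 and 0.12 to 0.24 in minors. Cflo_05189 was at 1.95 to 2.64 in majors and 2.98 to 3.48 in minors. These r values compare the shape over 2 castes of 5 libraries and are a description.

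The subsamples of 1 further day 1 minor brain give the 41 at small inputs with and without LinDA. This brain was not used in the choice; with 1 day 1 brain, age, feeding and amplification in the scouts cannot be told apart from it. All 41 are listed in that table, and 37 were detected in the 1% subsample, 38, 37, 39 and 38 in the 4 subsamples of 4%, and 39 in the 75% subsample without LinDA. In all 6 libraries, 34 of the 41 (82.9%) were detected, against 99.4% of the 1044 others. All 5 amplified subsamples held 35 of the 41 (85.4%), against 99.4% of the others. Of the 33 undetected in every DMSO scout, 27 (81.8%) were detected in all 5 amplified subsamples.

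Across members, the mean of the 4% subsamples minus the 75% value had a median of 0.12 on the log2 scale, against 0.08 for the 1044 others and 0.06 for the 3546. It ran from -4.48 to 3.38, and its absolute size had a median of 0.32, against 0.17 for the others. The spread over the 4 subsamples of 4% was also wider, with a median SD of 0.39, against 0.14 for the others and 0.16 for the 3546. Within 1 brain, the 41 thus varied more between subsamples than the others did. With 1 brain there is no test over animals, and this SD is technical.

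Cflo_16972 had the highest level without LinDA, with 8.31 in the 1% subsample, 8.68, 7.06, 8.15 and 8.08 in the 4% subsamples and 7.84 in the 75% subsample. It was thus seen at every input, as was Cflo_06306, at 6.26 to 7.18 in the 4% subsamples and 6.33 in the 75% subsample. Cflo_00620 was at 0 in the 1% subsample, 4.82, 5.39, 4.69 and 5.76 in the 4% subsamples and 6.62 in the 75% subsample. Cflo_10987 and Cflo_01763, undetected in all scouts, were at 4.36 to 5.01 and 5.10 to 6.76 in the 4% subsamples and 4.95 and 5.60 in the 75% subsample.

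Cflo_05546 was low at every input, with 0.27 in the 1% subsample, 0.58, 0.77, 0.78 and 0.54 in the 4% subsamples and 0.46 in the 75% subsample.

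Some members came and went between subsamples of that brain. Cflo_17056 was at 0 in the 1% subsample, 6.88, 0, 5.11 and 0 in the 4% subsamples and 6.81 in the 75% subsample. Cflo_13880 was at 0 in all 5 amplified subsamples and at 4.46 in the 75% subsample. Cflo_15967 was at 3.46 in the 1% subsample, 4.36, 4.56, 1.21 and 3.5 in the 4% subsamples and 0 in the 75% subsample. Cflo_16265 and Cflo_16895 were each at 0 in 1 of the 4% subsamples and detected in the other 5 libraries. Cflo_12218 was at 0 in all 6, although it lay between 4.42 and 5.13 in the 5 minors of the choice. Whether a value of 0 marks a transcript that was absent or an estimate that failed was not tested.

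**Figure D5:**
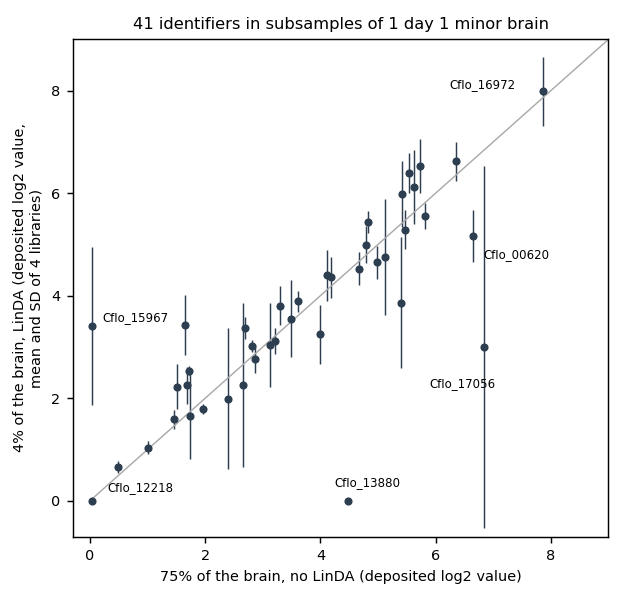
Deposited log2 values of the 41 identifiers in subsamples of 1 day 1 minor brain, with the mean and SD of 4 LinDA subsamples of 4% (y axis) against the 75% subsample without LinDA (x axis) and a line of equal values. Most points lie near the line. Cflo_13880, Cflo_17056, Cflo_10072 and Cflo_00620 fall furthest below it, and Cflo_15967 and Cflo_08974 furthest above it.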

How the data were processed

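Poly(A) RNA from central brains was sequenced in 37 libraries of a series of 64 samples; 27 chromatin samples are not analysed here. The submitters' processing notes name Bowtie2, bcl2fastq 2.0 and Cufflinks 2.2.1. A genome build is not given in the sources used here. The deposited tables hold log2 values, with the base inferred here from the values. Within a table each library was found to be 1 shared distribution plus a constant, with values under 0 set to 0, and undetected identifiers were spread over small rising values in line order, from which detection was recovered. Recovery and limma fits were tested on simulated data. The tables hold no counts, so depth is unknown and no counting interval is given. All of the 3 tables' value columns were assigned.

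Differences were tested with limma 3.58.1 in R 4.3.3 on the deposited values, with a variance trend and Benjamini-Hochberg adjustment over numbered identifiers with a mean of at least 1, at 0.05. The 3 scout groups shared 1 fit. Tables were normalized separately and no test crosses them. Labels do not pair brains beyond colony, so p-values measure the spread between these single-brain libraries. Whether major and minor replicate numbers pair them is not known, and the main fit did not pair them. Named identifiers are those with the highest minor means, the widest inhibitor scout detection, the highest and lowest major and 75% values, the smallest p values, the values nearest each limit and the likest patterns. The members and lists were chosen with earlier results of these data known. Alternatives changed the pseudocount, filter, constants, limits, blocks and libraries; those within single colonies, without DMSO scouts in the fit, over all identifiers, or on sets chosen without 1 library were added after seeing the data. No library was a copy of another (highest r 0.924). Other tools were Python 3.11.15, numpy 2.4.6, pandas 2.3.3, scipy 1.17.1 and matplotlib 3.10.9.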

Additional observations from a re-analysis of the deposited data

Results flagged for a closer look

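A gap test of the highest or lowest library of a group was made on 66 combinations of a group and a quantity and marked 14, where chance marks about 1 in 20. In scouts, the number of the 41 detected was far above the other DMSO brains in DMSO scout 18, at 7. The choice held all of these DMSO values under 0.5, so this flag is a description. Undetected identifiers reached 0.19 and 0.18 in DMSO scouts 17 and 18, and 0.28 to 0.31 in DMSO scouts 19 to 21. Single TSA+C646 brains stood far above the rest of their group for Cflo_09182 (TSA+C646 scout 15, level 4.59), Cflo_16265 (TSA+C646 scout 11, 2.56) and Cflo_16895 (TSA+C646 scout 16, 2.35). Single TSA brains did so for Cflo_00620 (TSA scout 10, 4.23), Cflo_09182 (TSA scout 4, 2.21), Cflo_16265 (TSA scout 10, 3.04) and Cflo_16972 (TSA scout 3, 5.03). On day 1, Cflo_00096 and Cflo_10554 in major 1 and Cflo_10987 in major 3 stood far below the other majors, each at 0. Cflo_12586 at 3.67 and Cflo_13880 at 4.40 in major 5 stood far above the others. Among the 4 subsamples of 4%, Cflo_06898 had 1 library apart, at 4.22. Groups in which nearly all libraries are at 0 are marked whenever 1 is not.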

How the results depend on the processing

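The number of identifiers chosen depends on the limits, with 132 at a DMSO limit of 1, 68 at a minor limit of 1.5, 23 at a minor limit of 3, and 43 to 54 without 1 library. At a deposited value of 2 or more, the 41 were present at a mean of 4 per TSA+C646 scout, 4.6 per TSA scout and 32.2 per 4% subsample. With members chosen by detection, 33 are left and the means are 33 per minor and 30 per 4% subsample. Majors 4 and 5 averaged 37. Without 1 library at a time the means ranged over 9 to 12.6 (TSA+C646), 12.7 to 15.3 (TSA), 0.25 to 2 (DMSO), 18 to 26.5 (majors), 41 (minors) and 37.7 to 38.3 (4% subsamples), and the median of 4% minus 75% over 0.05 to 0.27.

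Calls among the 41 were 0 in the 3 scout comparisons under every alternative run. Within colony SB2 alone 1 identifier, not among the 41, was called in TSA against DMSO. Between TSA+C646 and TSA, Cflo_05716 turned to 0.34 in SB4 alone. For majors against minors, 0 of the 41 were called without majors 1 to 3, and 1 to 5 of the 41 and 2 to 42 identifiers in all without 1 library. The correlation of same-numbered majors and minors was -0.05 to 0.12, over 0.1 in 1 of 5, and 2 of 5 majors correlated best with their own number. These few weak values cannot settle whether replicate number pairs the brains. With the replicate block 1 of the 41, Cflo_00620, was called (limma adjusted p = 0.0404). The cause of these shifts was not tested. Unknown depth and the ties at the bottom limit what absence means.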

Other observations

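Among 1205 identifiers outside the numbered form, 8 met the limits for day 1 minors and 3 of these also the limit for DMSO scouts. All 3 carry small nuclear RNA names, Cflo_snRNA1, Cflo_snRNA10 and Cflo_snRNA15, with means of 5.48, 5.10 and 4.89 in day 1 minors; they are named here after their values were seen.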
